A study of Mus musculus with 2 samples.

Results

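The T-box genes Tbx1, Tbx2, Tbx3, Tbx4, Tbx5, Tbx15 and Tbx18 and the homeobox genes Pitx1 and Pitx3 encode transcription factors that help to set up muscles and connective tissue in particular regions of the body. They were followed here in mouse skeletal muscle through every probe set annotated to exactly 1 of these 9 symbols, which gave 18 probe sets for 9 of the 18193 named genes on the array. Total RNA was hybridised to 2 Affymetrix Mouse Genome 430 2 arrays, 1 for wild-type mice and 1 for mice null for Jhdm2a, a histone H3 lysine 9 demethylase gene now named Kdm3a. RNA of 3 males, 3 months old, was combined for each array. Both groups descend from 129 ES cells, with 4 generations of backcrossing to C57BL/6. The labels call the tissue skeletal muscle, and they do not name the muscle.

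T-box factors share a DNA-binding domain named after Brachyury and act as activators or repressors, while PITX factors bind DNA through a homeodomain of the bicoid type. In the embryo, Tbx1 is needed for the muscles of the jaw and pharynx, Tbx5 for the forelimb, and Pitx1 with Tbx4 for the hindlimb. Tbx2 and Tbx3 pattern the limb margins, Tbx15 and Tbx18 act in limb and trunk mesenchyme, and Pitx3 acts in the lens, in midbrain dopamine neurons and in differentiating muscle.

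The values are MAS5 signals, a linear brightness per probe set in arbitrary units. With 1 pooled array per genotype no test was possible and no p-value is given, so higher and lower describe these 2 arrays, whose number limits the precision. A probe set was taken as measured when its signal was above a floor of 182 on both arrays. Log2 ratios are null over wild-type. Over all 9696 measured genes their median was 0.04 with an SD of 0.46. The pooled SD between probe sets of 1 gene, a technical error that covers no variation between mice, was 0.29. For the 18 spiked hybridisation controls the log2 ratio averaged -0.02 ± 0.09 (SD). The single Kdm3a probe set read 406 and 488, 1.20-fold higher on the array labelled null, and where it lies relative to the disruption is not stated, so it does not settle the labels, on which every direction rests. All 12 skeletal muscle fibre markers were measured on both arrays, with log2 ratios between -0.09 and 0.26. The 9 genes were selected on earlier results of these same arrays, in which the signal ratio of Tbx1 was among the highest, so their ratios are descriptions.

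The region directly upstream of Tbx1 is shown because this gene had the largest measured ratio of the 9. RefSeq on the build GRCm38.p6 lists 2 starts of Tbx1 on the minus strand of chromosome 16. The 250 bases before each start are printed 5′ to 3′, the gene's outermost start first, with capitals marking the E-box letters CANNTG, the general pattern bound by basic helix-loop-helix factors such as MyoD.
Tbx1 outer start, chr16:18590672-18590921: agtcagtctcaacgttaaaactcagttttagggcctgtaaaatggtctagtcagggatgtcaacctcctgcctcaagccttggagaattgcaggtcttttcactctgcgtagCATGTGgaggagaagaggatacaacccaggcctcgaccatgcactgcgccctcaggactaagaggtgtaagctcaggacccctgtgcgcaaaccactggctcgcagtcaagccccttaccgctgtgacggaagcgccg
Tbx1 inner start, chr16:18588900-18589149: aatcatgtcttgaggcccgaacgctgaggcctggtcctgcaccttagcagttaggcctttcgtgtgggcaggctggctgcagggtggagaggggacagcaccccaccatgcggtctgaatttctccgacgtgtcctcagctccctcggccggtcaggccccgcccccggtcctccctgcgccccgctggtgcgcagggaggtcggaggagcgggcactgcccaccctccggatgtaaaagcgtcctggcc
The outer window held 1 E-box, CATGTG, and the inner window held 0. Of 32851 windows of the same length before RefSeq starts, 66.2% held at least 1. The bicoid-type letters TAATCC and the T-box half-site core GGTGTG, each searched on both strands, were in neither Tbx1 window, against 6.25% and 16.3% of all windows. The inner window held 17 CG dinucleotides and the outer window 10, against a median of 6 over all windows. Among the other 8 genes the table matched Tbx4, Tbx18 and Pitx3. Each of these held at least 1 E-box in its window, with 3 for Tbx4, 1 for Tbx18 and 2 for Pitx3, and none held either of the other motifs. A letter match describes the sequence and does not show a site in use.

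Tbx1 and Tbx15 were higher on the array labelled null, Tbx3 and Pitx3 differed little, Pitx1 was above the floor on the array labelled null alone, and Tbx2, Tbx4, Tbx5 and Tbx18 were under the floor on both. Of the 18 probe sets, 6 were above the floor on both arrays, 2 on the array labelled null only, 0 on the array labelled wild-type only and 10 on neither. By gene, 4 of the 9 were measured on both arrays, against 53.3% of all named genes, and 4 stayed under the floor throughout, against 41.2%. Among the 4 measured genes a rise of at least 2-fold was seen for 2 and a fall of that size for 0, against 0.371% and 2.36% of all measured genes. The same 2 were also the members at least 1.5-fold higher, and 0 were 1.5-fold lower, against 3.35% and 6.27% of all measured genes, or 9.62% in either direction. Since the choice of genes used this comparison, nothing is read from these counts.

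**Figure D1:**
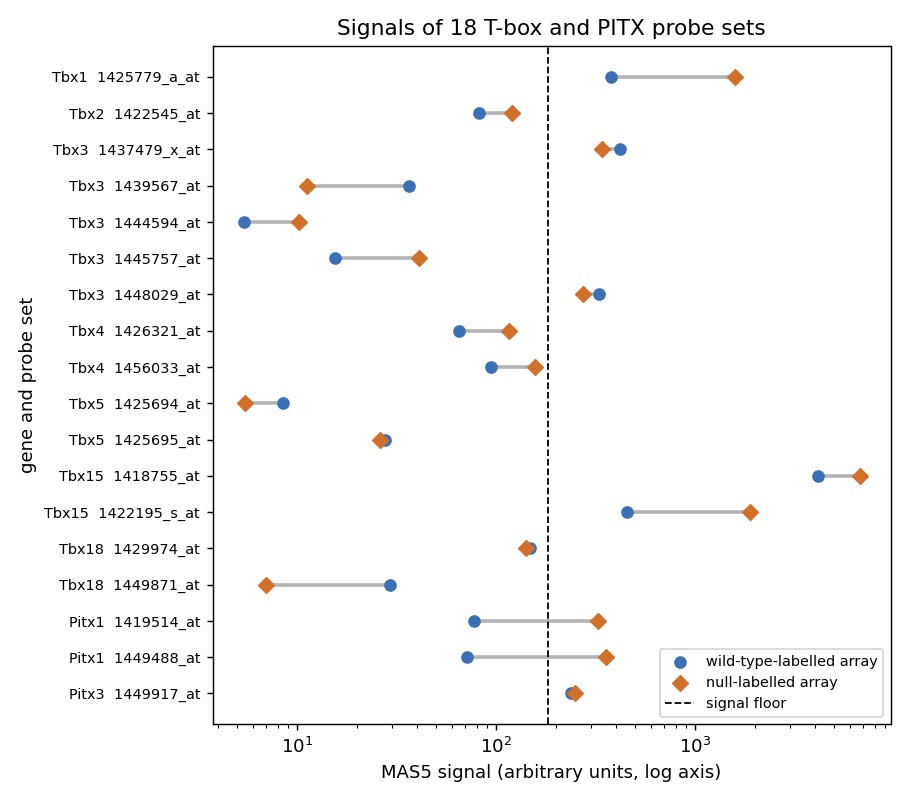
MAS5 signal (arbitrary units, log axis) of each of the 18 probe sets on the array labelled wild-type (blue circles) and the array labelled null (orange diamonds), joined by a grey line, with the floor of 182 dashed. Tbx1 and both Tbx15 probe sets lie right of the floor with the array labelled null higher, and both Pitx1 probe sets cross the floor.

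Tbx1, the regulator of pharyngeal muscle, read 377 on the array labelled wild-type and 1579 on the array labelled null in its 1 probe set, 1425779_a_at. The array labelled null was the higher by 4.19-fold, a log2 ratio of 2.07. Among 9696 measured genes this was rank 2 from the highest, after Ngp, a neutrophil granule gene, at 2.63. Genes above the floor on the array labelled null only have no rank. Of these, S100a8 and S100a9 had bounds of at least 12.9-fold and 11.9-fold higher, larger than the ratio of Tbx1. The suffix _a_at marks a probe set designed to match several transcripts of the same gene, so the forms arising from different Tbx1 starts cannot be told apart. There was no second Tbx1 probe set to set against it. With the floor at the 75th percentile of signals (467) Tbx1 was not measured on the array labelled wild-type and had only a bound of at least 3.38-fold higher.

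Tbx15, which is known in adult mice from fast glycolytic muscle fibres and from fat depots, was higher in both of its probe sets, which disagreed on the size. The brighter, 1418755_at, read 4114 on the array labelled wild-type and 6701 on the array labelled null, 1.63-fold higher. The dimmer, 1422195_s_at, read 453 and 1888, 4.17-fold higher. Their mean log2 ratio was 1.38 ± 0.96 (SD of 2 probe sets), or 2.60-fold, and ranked 11 from the highest among measured genes. Of 2425 genes with exactly 2 measured probe sets, 14 (0.577%), Tbx15 included, had probe sets that differed at least as much. Both probe sets are annotated to the same Tbx15 transcript, and the suffix _s_at marks probes that can match more than 1 gene. From the brighter probe set alone the log2 ratio was 0.70, which ends the 2-fold call, so at least 2-fold rests on the dimmer one. With the floor at the 75th percentile the dimmer probe set was again left out.

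Pitx1, which directs hindlimb identity, had both of its probe sets under the floor on the array labelled wild-type and above it on the array labelled null. The probe set 1419514_at read 77.1 and 326, and 1449488_at read 71.5 and 359. Against the floor these give bounds of at least 1.79-fold for the first and 1.97-fold for the second, and the true ratio is not given because the wild-type signals lie below the floor. The brighter reading fell just short of 2 times the floor, 364, a level that 0.0605% of named genes reached on the null side alone. In all, 445 named genes (2.45%) crossed the floor only in the null pool, and 12 of these, Pitx1 included, had a bound at least as large as that of Pitx1. With the floor at the 50th percentile (112) Pitx1 was still under it on the array labelled wild-type, and the bound was at least 3.22-fold. With no floor and 50 added to each signal, its log2 ratio was 1.66, a size that depends on the amount added. In that setting 0.506% of 18193 genes were at least 2-fold higher, with Tbx1, Tbx15 and Pitx1 among them.

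Tbx3, a repressor that patterns the limb margins, had 5 probe sets, of which 2 were measured. The probe set 1437479_x_at read 418 on the array labelled wild-type and 342 on the array labelled null, and 1448029_at read 328 and 274. Both were a little lower on the array labelled null, with log2 ratios of -0.29 and -0.26. The mean of -0.27 ± 0.02 (SD of 2 probe sets), 1.21-fold lower, is no larger than the technical SD of 0.29. The other 3 Tbx3 probe sets lay between 5.4 and 41.1 on the 2 arrays, well under the floor, and differed in which array was the brighter. Values under the floor have no order, so no direction is read from them.

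Pitx3, the PITX member of lens and differentiating muscle, was nearly the same on both arrays. Its 1 probe set, 1449917_at, read 237 on the array labelled wild-type and 249.9 on the array labelled null, a log2 ratio of 0.08. The next gene to Pitx3 in the RefSeq order of chromosome 19 is Elovl3, a fatty acid elongase abundant in brown fat, named here after its values were seen. Elovl3 read 2092 on the array labelled wild-type and was under the floor at 114 on the other, at least 11.5-fold lower, while Pitx3 beside it differed by 1.05-fold.

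The other limb genes were not measured. Tbx4, the hindlimb T-box gene, read 65 and 94.3 in its 2 probe sets on the array labelled wild-type and 116 and 157 on the array labelled null. Both Tbx4 readings were listed higher on the array labelled null, but all 4 lie under the floor. Tbx5, the forelimb gene, read 8.5 and 27.6 on the array labelled wild-type and 5.5 and 26.3 on the array labelled null, far under the floor. Tbx2, a repressor related to Tbx3, read 82.6 and 120 in its 1 probe set. Tbx18, known from somite mesenchyme and from pericytes, read 149 and 141 in 1429974_at and 29.4 and 7.0 in 1449871_at. A signal under the floor does not show that the transcript is absent.

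The ratio of Tbx1 could be set against few of the limb genes. Of the 7 limb and limb-girdle genes (Tbx2, Tbx3, Tbx4, Tbx5, Tbx15, Tbx18 and Pitx1) 2 were measured on both arrays, Tbx15 and Tbx3, with a median log2 ratio of 0.55. The log2 ratio of Tbx1 was larger than this median by 1.51, larger than that of Tbx15 by 0.68 and larger than that of Tbx3 by 2.34. Against the single Tbx15 probe sets the gap was 1.36 for the brighter and 0.01 for the dimmer, the first larger and the second smaller than the technical SD of 0.29. Pitx1 has only a bound, so whether its ratio was smaller or larger than that of Tbx1 cannot be said, and Tbx2, Tbx4, Tbx5 and Tbx18 have no ratio here. These gaps have no replicate check.

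**Figure D2:**
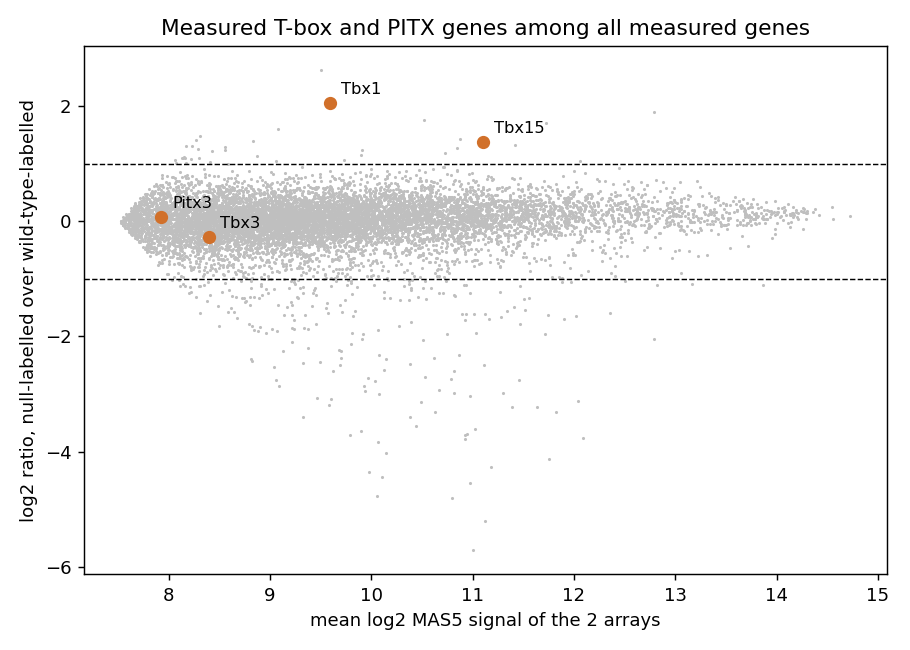
Log2 ratio (null over wild-type) against mean log2 MAS5 signal for the 9696 measured genes in grey, with the 4 measured T-box and PITX genes in orange and dashed lines at 2-fold. Tbx1 (2.07) and Tbx15 (1.38) lie above the upper line, and Pitx3 (0.08) and Tbx3 (-0.27) lie within the main cloud.

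Few neighbours of Tbx1 gave a ratio. Tbx1 lies on chromosome 16 in the stretch that matches the human region deleted in DiGeorge syndrome. Of the 3 genes on each side in RefSeq order, 3 were on the array with 1 symbol. Gp1bb, a platelet glycoprotein gene, had -0.22, smaller in size than the technical SD of 0.29, so no direction is read for it. Txnrd2, the mitochondrial thioredoxin reductase, had -0.49. Gnb1l was under the floor at 129 and 144. Tbx2 is the neighbour of Tbx4 and Tbx3 lies 3 genes from Tbx5, pairs that are known to have arisen from an old duplication. Tbx3 was measured, and Tbx5, Tbx2 and Tbx4 were not.

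The 5 measured genes whose signals on both arrays lay closest to those of Tbx1, by distance of log2 signals, were Ngp, Pcp4l1, Aspn, Gsdme and Slc4a1, with distances of 0.42, 0.73, 0.73, 0.77 and 0.80. A signal level also depends on the probes, and 2 arrays give 2 values per gene, so this closeness is not a likeness of regulation. Their log2 ratios ran from 1.07 for Aspn to 2.63 for Ngp, against 2.07 for Tbx1.

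Further T-box and homeobox genes gave few values. Of 10 other T-box genes 8 were on the array with 1 symbol and 1 was measured, Mga, a T-box and helix-loop-helix protein of the MAX network, at 0.44 ± 0.16 (SD of 2 probe sets). Tbx21, the T-box factor of T helper 1 cells, read 98.5 and 188, just over the floor on the array labelled null. The other 6 were under the floor on both arrays. Of 8 homeobox genes related to Pitx1 and Pitx3 that were on the array, 2 were measured. Prrx1, a gene of limb mesenchyme, had 0.61 ± 0.56 (SD of 4 probe sets that differ in sign, so it was not counted), and Shox2, a gene of proximal limb, had 0.04.

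The genes that work with Tbx1 in head and pharyngeal muscle showed no common direction. Of 20 on the array 10 were measured, with a median of 0.00 that turned sign between settings and is not read as a direction. Eya1, a cofactor of the sine oculis proteins, was 1.55-fold higher, and Smad7, an inhibitor of TGF-beta signalling, was 1.74-fold lower with 2 probe sets that disagreed in size (SD 0.96). Six4, a sine oculis homeobox factor of muscle, had 0.53 ± 0.05 (SD of 3 probe sets). Crkl, an adaptor known to interact genetically with Tbx1, had 0.03, and Msc, a helix-loop-helix factor of jaw muscle, had -0.02 at signals close to the floor. The pharyngeal regulators Isl1, Lhx2, Nkx2-5 and Tcf21 were under the floor on both arrays. Of the 5 extraocular and masticatory fibre genes on the array, 3 were measured, Myh3, Myh8 and Myl4, between -0.28 and -0.14. Myh6 was under the floor on both arrays, and Myh7b was above it on the array labelled wild-type only.

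Genes that mark position along the limb and trunk were also set beside Pitx1 and the limb T-box genes. Of 23 limb patterning genes on the array 11 were measured, with a median of 0.06, 0 of them 1.5-fold higher and 1 lower. That gene was Hoxd9, a 5′ HOXD gene, 2.16-fold lower. Hoxa9 had 0.58 ± 0.77 (SD of 2 probe sets) and Hoxa10 0.50. Of 14 HOX genes of trunk and forelimb level 6 were measured, with a median of -0.27, 0 of them 1.5-fold higher and 2 lower, Hoxd8 at -0.84 and Hoxa4 at -0.59. The trunk median stayed between -0.43 and -0.24 in all settings. With 11 and 6 genes and 1 array per genotype, the difference between the 2 lists was not tested.

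Since Tbx15 is tied to fast fibres and Pitx3 to muscle differentiation, fibre and myogenic genes were read beside them. The 11 fast fibre genes had log2 ratios between 0.10 and 0.57, and 0 of them reached 1.5-fold. Their median was 0.19, and 0.08 after quantile normalization or loess. Over all measured genes the median was 0.04, with 0.05 after quantile normalization and -0.003 after loess. Whether the fast fibre genes differ from other bright genes was not tested. The largest was Myoz1, a Z-disc protein, at 0.57 ± 0.56 (SD of 2 probe sets). The slow fibre genes had a median of 0.09 over 10 genes, which was -0.00183 after loess, and 2 were 1.5-fold higher, Myoz2 at 0.70 and Csrp3 at 0.65. Of 7 measured myogenic factors 1 was 1.5-fold higher, Mef2a, a MADS-box partner of MyoD, at 0.82 ± 0.21 (SD of 4 probe sets). Myod1 had 0.05, and Myf5, a determination factor of muscle precursors, passed the floor only in the null pool, with a bound of at least 1.71-fold higher.

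**Figure D3:**
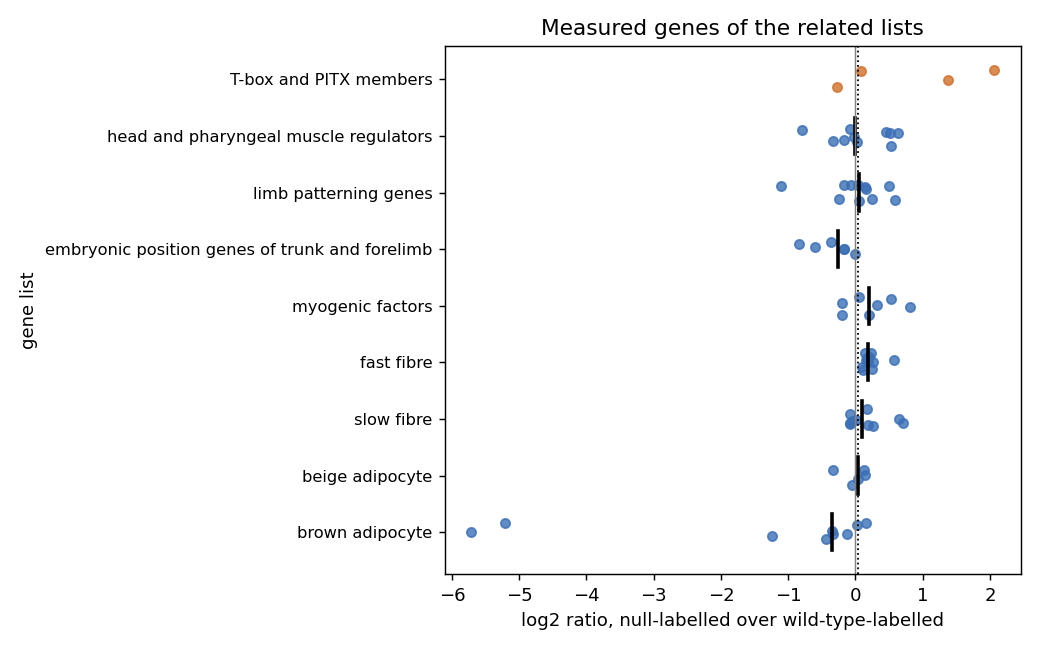
Log2 ratio (null over wild-type) of each measured gene in the T-box and PITX set (orange) and in 8 related lists (blue), with a black bar at each related list's median and a dotted line at the median of all genes, 0.04. Apart from brown adipocyte genes, which reach -5.71, the related genes lie between -1.11 and 0.82, while Tbx1 stands at 2.07 and Tbx15 at 1.38.

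Markers of other cell types differed between the same 2 arrays, and fewer cells of a type cannot be told apart from less RNA per cell. Tbx1 is known from beige fat and Tbx15 from brown and white fat, so 3 lists of fat genes are given first. The 12 brown adipocyte genes on the array had a summed signal of 72395 on the array labelled wild-type and 37262 on the array labelled null. Cox8b (20562 and 18805) and Cox7a1 (13555 and 13825), which differed little, made up most of the second sum. The sums therefore understate the fall of other genes in the list, such as Ucp1 at 14885 and 283. Of the 9 measured, 3 were 1.5-fold lower, Ucp1, Cidea and Ebf2, and 0 were higher. Over all measured genes these shares were 6.27% and 3.35%. The other measured genes of this list lay between -0.43 for Prdm16 and 0.16 for Ppargc1a. A further 2, Elovl3 and Otop1, were above the floor on the array labelled wild-type only, at least 11.5-fold and 14.8-fold lower. The 8 genes of any adipocyte summed to 59522 and 18722, with all 6 measured genes at least 2-fold lower. The 10 beige adipocyte genes summed to 3950 and 3851, with 0 of the 5 measured past 1.5-fold, and the beige markers Tmem26, Cited1, Cd40 and Tnfrsf9 under the floor on both arrays. Sp100 was above the floor on the array labelled wild-type only, at least 1.16-fold lower. Slc27a1, at 1627 and 1589, was the largest part of both sums. Hoxc9 and Shox2 are also in the limb and homeobox lists above. These sums therefore do not show whether beige cells differed.

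The lists of other cell types differed in both directions. The 11 leukocyte genes summed to 3409 on the array labelled wild-type and 9103 on the array labelled null, through S100a8, S100a9 and Ngp. The 6 measured leukocyte genes had a median log2 ratio of 0.09. Of these, 1 was at least 1.5-fold higher, Ngp, and 1 lower, Cd163 at 1.60-fold, against 3.35% and 6.27% of all measured genes. A rise of leukocyte markers in general is therefore not shown. The 7 Schwann cell and nerve genes summed to 12976 and 17962, with a median log2 ratio of 0.57. Of these 7, 3 were at least 1.5-fold higher and 1, S100b, was 5.49-fold lower, the only 1 below 0. The 10 pericyte and smooth muscle genes, read because Tbx18 marks pericytes, summed to 40803 and 47027, with 2 of 9 measured genes 1.5-fold higher and 1 lower. The fibroblast and tendon genes summed to 58177 and 64139, the endothelial genes to 6546 and 6126 with 2 of 8 at least 1.5-fold lower and 0 higher, the bone and cartilage genes to 2147 and 2481, and the muscle spindle and end plate genes to 2057 and 2190. The hepatocyte genes summed to 14898 and 2714, of which Cyp2e1 gave 4643 and 1824. Both measured genes were at least 2-fold lower, against 2.36% of all measured genes. A further 5 were above the floor on the array labelled wild-type only, with bounds from at least 3.19-fold lower for Fga to 20.4-fold for Ttr. None of the markers in these lists was listed at 0. The part of these cell types in the ratios of Tbx1, Tbx15 and Pitx1 was not tested.

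The ratios of Tbx1, Tbx3 and Pitx3 kept their sign in every setting that measured them. All settings rework the same 2 arrays, so a kept sign is no replicate check. Across these settings the log2 ratio of Tbx1 lay between 1.93 and 2.08, that of Tbx3 between -0.31 and -0.07 and that of Pitx3 between 0.04 and 0.09. For Tbx15 the range was 0.70 to 1.38, always above 0. No direction is read for Tbx3 and Pitx3, whose main ratios of -0.27 and 0.08 are smaller than the technical SD of 0.29. The Tbx3 value of -0.07 came with no floor and averages all 5 of its probe sets, 3 of them under the floor.

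**Figure D4:**
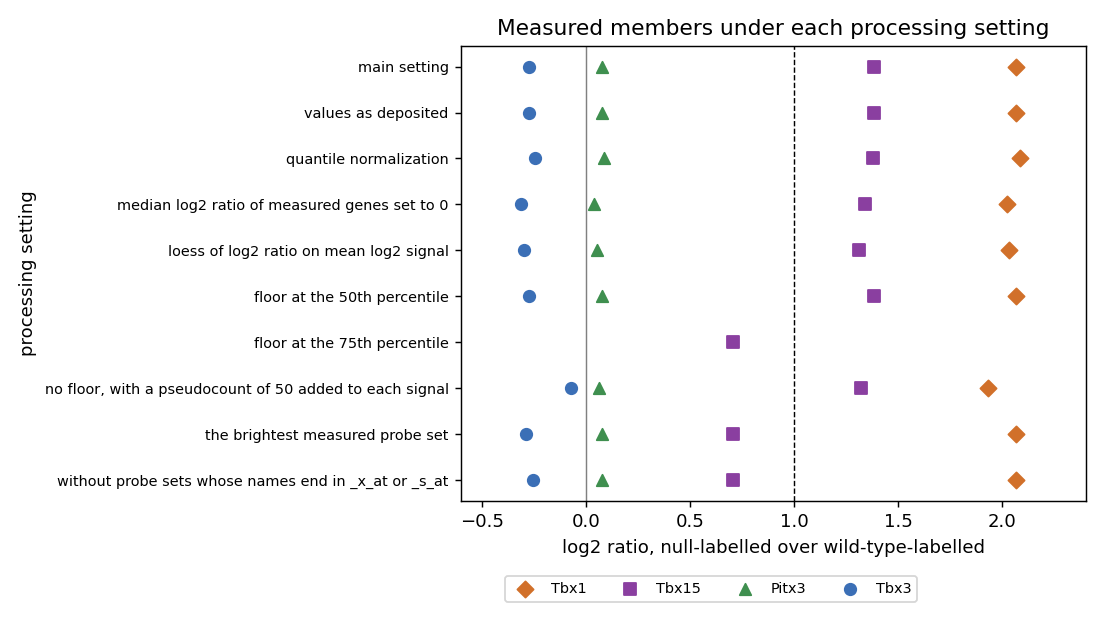
Log2 ratio (null over wild-type) of Tbx1, Tbx15, Pitx3 and Tbx3 under the main setting and 9 alternatives, with a dashed line at 2-fold; a missing marker means that the gene was not measured. Tbx1 stays between 1.93 and 2.08 where measured, and Tbx15 falls to 0.70 in 3 alternatives.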

How the data were processed

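The authors deposited a MAS5 intensity for each probe set, linear and unlogged, per the submitters' processing notes; the MAS5 version is not stated. In the table used the 2% trimmed mean was 500 on each array, so the arrays were already on 1 scale, and equalising it again changed no value. Detection calls were not used here, and a floor at the 60th percentile of 45037 non-control probe sets over both arrays stood in for them. Groups follow each sample's source label. The platform annotation gave 34945 of these probe sets 1 gene symbol, 932 several and 9160 none. For each gene the log2 ratios of its measured probe sets were averaged, and it was counted past 1.5-fold or 2-fold when they had 1 sign. Genes above the floor on a single array got a bound, their signal there divided by the floor. Summed signals add the brightest probe set of each gene on each array.

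Named are the 9 members, up to 3 genes per list with the largest absolute log2 ratio, 3 neighbours on each side of Tbx1 and the 5 genes nearest to it. Others, such as Crkl, Msc, Myod1, Elovl3 and single cell type markers, were named after their values were seen. The members and lists were chosen with earlier results of these data known. RefSeq tables on GRCm38.p6 gave gene order and the promoter windows, which matched 4 of the 9 genes. The counting was tested on simulated data with changes planted only in genes well above the floor, so that test does not cover members near it. Python 3.11.15, numpy 2.4.6, pandas 2.3.3 and statsmodels 0.14.6 were used.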

Additional observations from a re-analysis of the deposited data

How the results depend on the processing

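With the floor at the 75th percentile 1 of the 9 genes was measured on both arrays. In that setting 0 were at least 2-fold higher and 1 was at least 1.5-fold higher or lower. Tbx3 and Pitx3 were then under the floor on both arrays. Tbx1 and the dimmer Tbx15 probe set were under it on the array labelled wild-type only. Tbx1 then had no log2 ratio but a bound of at least 3.38-fold higher. With no floor and 50 added to each signal all 9 had a value and 3 were at least 2-fold higher. Taking only a gene's brightest probe set, and without probe sets ending in _x_at or _s_at, 1 gene was at least 2-fold higher, Tbx1. The gap of Tbx1 over the median of the limb genes was 2.14 with the floor at the 50th percentile, where Tbx18 entered the median, 1.86 from the brightest probe sets and 1.84 without _x_at and _s_at probe sets. The values as deposited, quantile normalization, centring on the median and loess with a span of 0.3 kept every count of members and moved no member's ratio past the technical SD. No paired analysis was possible because each genotype has 1 array. Signals near the floor limit Pitx3, Tbx3 and the wild-type reading of Tbx1.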
